A study of Homo sapiens with 9 samples.

Results

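The 10 genes described here encode proteins that the liver releases into the blood: ALB, AFP and GC of the albumin family, the protease inhibitors SERPINA1 and A2M, the fetuins AHSG and FETUB, the lipocalins RBP4 and AMBP, and the haem carrier HPX. They were taken by symbol, as 10 of the 57773 annotated features, and each is followed as its gene reads and as its share of all gene reads. The cells were HepG2, an established human liver tumour line that makes many plasma proteins of the hepatocyte. For 72 h the cultures received TBOEP, tris(2-butoxyethyl) phosphate, which is used as a flame retardant and plasticiser, at 125 µM (3 libraries) or 2.5 µM (3 libraries), or to the solvent alone (3 control libraries). All cultures, controls included, held 0.1% DMSO, and both concentrations were chosen by the submitters below cytotoxic levels. Each library came from a separately seeded and treated culture of the same tumour line, under 25 passages, so the spread between replicates is that between cultures of 1 line and not between donors.

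Hepatocytes supply most proteins of the plasma. Their mRNAs are made under the control of liver-enriched transcription factors such as those of the HNF4, FOXA and C/EBP families, and the proteins pass through the endoplasmic reticulum and the Golgi before release. Albumin carries fatty acids, hormones and drugs and keeps water in the circulation, while alpha-fetoprotein, its fetal counterpart, is normally silenced after birth and is made again by many liver tumours.

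Total gene reads ran from 2480964 in the third 2.5 µM library to 11885877 in the second 125 µM library, so that 3 reads stood for 1.21 CPM (reads per 1000000 gene reads; the members' levels given as CPM are also scaled by TMM) in the shallowest and 0.252 CPM in the deepest. Mitochondrial transcripts took 7.58 to 8.64% of the reads in controls, 6.82 to 7.19% with 2.5 µM and 8.85 to 9.69% with 125 µM, so this share differed between the groups without overlap, and its part in the members' changes was not tested. The HepG2 label was checked against 8 hepatocyte markers that are not among the 10 genes (the fixed list of 12 also holds ALB, AFP, SERPINA1 and AHSG). All 8 had reads, and their summed level was 26307 to 31307 CPM in controls, 23869 to 25643 CPM with 2.5 µM and 19591 to 20286 CPM with 125 µM. Most of this sum came from APOB and TF, at means of 15376 and 10825 CPM in controls. By edgeR at an adjusted p under 0.05, 2 of the 8 were higher and 3 lower at 125 µM, with a median log2 fold change of 0.020. Of all tested genes 20.3% were higher and 19.9% lower. At 2.5 µM 3 of the 8 were higher and 1 lower (6.03% and 5.04% of all genes), with 2 to 4 higher and 0 to 3 lower when 1 library was left out. Of the defining markers of other cells, PTPRC (blood cells) and COL1A2 (fibroblasts) had 0 reads in every library, COL1A1 (fibroblasts) had 3, 13 and 2 reads over the control, 2.5 µM and 125 µM libraries, and CDH5 (endothelium) had 4, 19 and 31.

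Promoter sequences are shown for members of which the results speak most. RefSeq gave a promoter window, 250 bases before the start and 50 after it, for 8 of the 10 genes, all but A2M and GC, each of which was found once, letter for letter, in the hg19 assembly. The 150 bases just before the start are printed 5′ to 3′ on the gene's strand for both albumin-family members with a window, for the SERPINA1 start that holds a match and for AHSG, the member that moved the other way. They lie at chr4:74269854-74270003 (ALB, plus strand), chr4:74301788-74301937 (AFP, plus), chr14:94854940-94855089 (SERPINA1, minus) and chr3:186330699-186330848 (AHSG, plus). Capitals mark matches, on either strand, to GTTAAT, a short motif found in promoters of liver genes, and to TATAAA, the TATA box.
ALB: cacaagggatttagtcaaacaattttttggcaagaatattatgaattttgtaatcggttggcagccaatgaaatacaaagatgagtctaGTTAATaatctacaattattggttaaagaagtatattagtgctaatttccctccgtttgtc
AFP: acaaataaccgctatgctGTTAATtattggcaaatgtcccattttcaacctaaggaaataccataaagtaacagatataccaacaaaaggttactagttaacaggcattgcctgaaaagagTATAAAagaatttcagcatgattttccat
SERPINA1: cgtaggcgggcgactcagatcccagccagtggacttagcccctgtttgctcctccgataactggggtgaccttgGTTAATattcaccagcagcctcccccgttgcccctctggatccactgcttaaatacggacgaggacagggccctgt
AHSG: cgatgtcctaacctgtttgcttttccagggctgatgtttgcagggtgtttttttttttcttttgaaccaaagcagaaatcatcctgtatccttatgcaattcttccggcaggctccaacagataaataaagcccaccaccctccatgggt
GTTAAT lay 61 to 56 bases before the start in ALB, 132 to 127 bases before it in AFP and 76 to 71 bases before it in SERPINA1. It was found in the windows of these 3 of 8 members, and in 8.27% of all 27305 genes with a window of the same length. HPX, which was also lower at 125 µM, had neither GTTAAT nor TATAAA in its window and is not printed. TATAAA, 29 to 24 bases before the start in AFP, was in the windows of 3 of 8 members, AFP, FETUB and RBP4, and in 14.0% of all genes. CCAAT was in the windows of 6 of 8 members (39.7% of all genes) and TGTTTNC, a core of the FOX site, in those of 5 of 8 (21.2%). These matches may overlap one another, and a match is a description of the letters in the window and no evidence of binding.

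At 125 µM, 5 of the 9 members with enough reads to be tested were lower than in the controls (ALB, AFP, SERPINA1, A2M and HPX), 1 was higher (AHSG) and 3 did not pass the test (RBP4, FETUB and AMBP). ALB was 2.49-fold lower, AFP 2.71-fold and A2M 3.10-fold. Of all 12901 genes tested 40.2% passed in this comparison, 19.9% lower and 20.3% higher, by edgeR's quasi-likelihood test with Benjamini-Hochberg adjustment over all of them and a threshold of 0.05. The median log2 fold change of the 9 members was -0.42, which is the value of FETUB, a faint gene that did not pass, beside 0.0036 over all genes. Treated and control libraries were fully apart in 7 of the 9 members, 1 higher and 6 lower, where 50.9% of all genes did not overlap. On the authors' RPKM, tested with limma, ALB, AFP and A2M passed at 125 µM and SERPINA1, AHSG and HPX did not. The tenth member, GC, had too few reads to pass the filter on low counts. In bulk RNA, fewer cells that express a gene and less of its RNA per cell cannot be told apart.

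**Figure D1:**
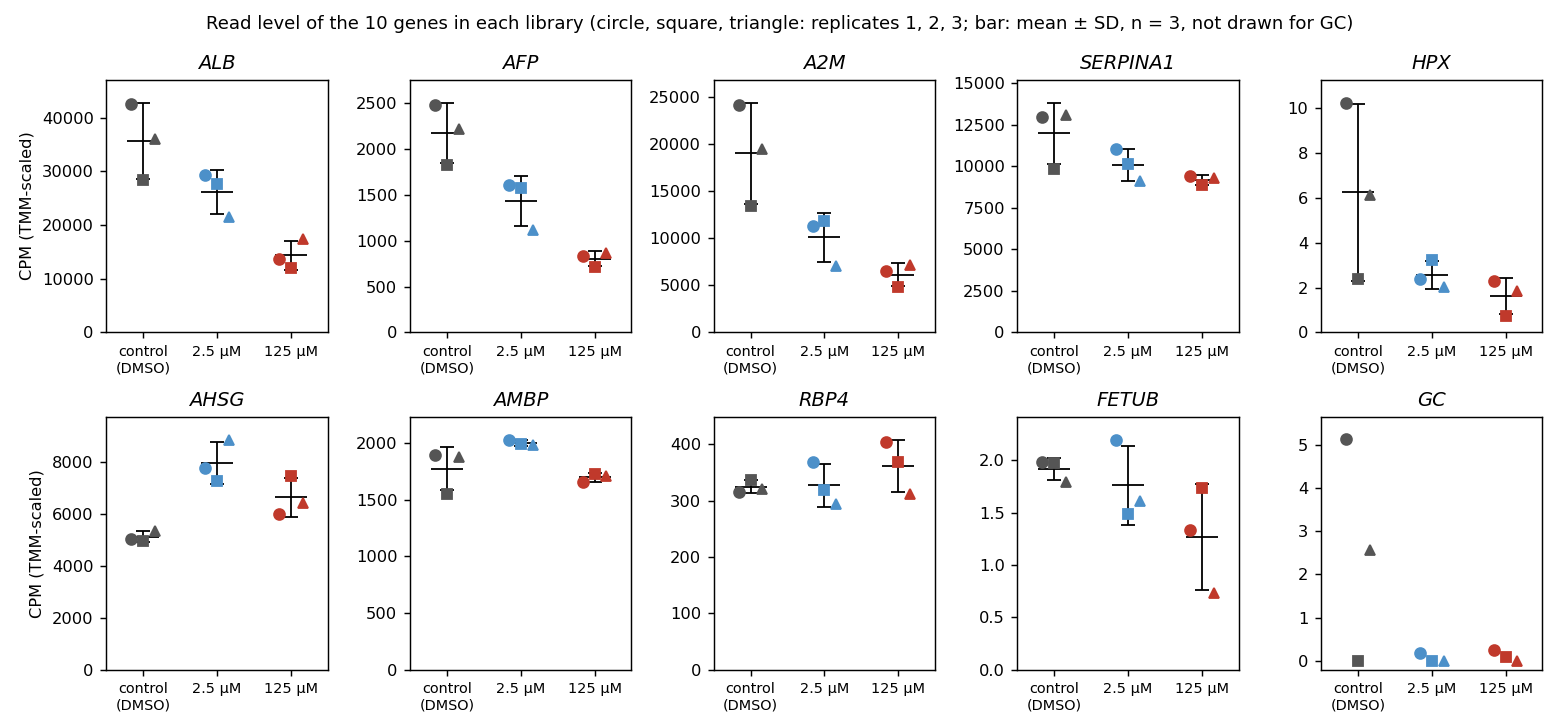
Level of each of the 10 genes in each library, as CPM scaled by TMM on a linear axis, with the control, 2.5 µM and 125 µM libraries as circles, squares and triangles for replicates 1 to 3 and bars for the mean ± SD (n = 3, not drawn for GC). ALB, AFP and A2M are lower at 125 µM than in every control library, AHSG is higher in every TBOEP library, and HPX, FETUB and GC stay at or below 10.3, 2.20 and 5.13 CPM.

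At 2.5 µM fewer members moved. AFP and A2M were lower and AHSG was higher than in the controls, and 6 of the 9 did not pass, where 11.1% of all genes passed (5.04% lower, 6.03% higher). Groups did not overlap in 4 members, AFP and A2M lower and AHSG and AMBP higher, beside 28.2% of all genes. The median log2 fold change of the members was -0.25, the value of SERPINA1, which did not pass, and that of all genes -0.0052. On RPKM 0 members passed at 2.5 µM in limma, 4 of them having an unadjusted p under 0.05. Between the concentrations, ALB, AFP and A2M were lower at 125 µM than at 2.5 µM, 0 members were higher and 6 did not pass (14.9% of all genes passed, 7.44% lower and 7.48% higher). No member was higher there at an unadjusted p under 0.05 either (0 of 9), and DESeq2 also called 0 higher. In that comparison 3 members did not overlap, all lower (ALB, AFP and AMBP), beside 32.8% of all genes. A2M, which passed, overlapped, and AMBP did not pass. The comparisons with the controls share the same 3 control libraries, so their values are set side by side without a measure of likeness between them.

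**Figure D2:**
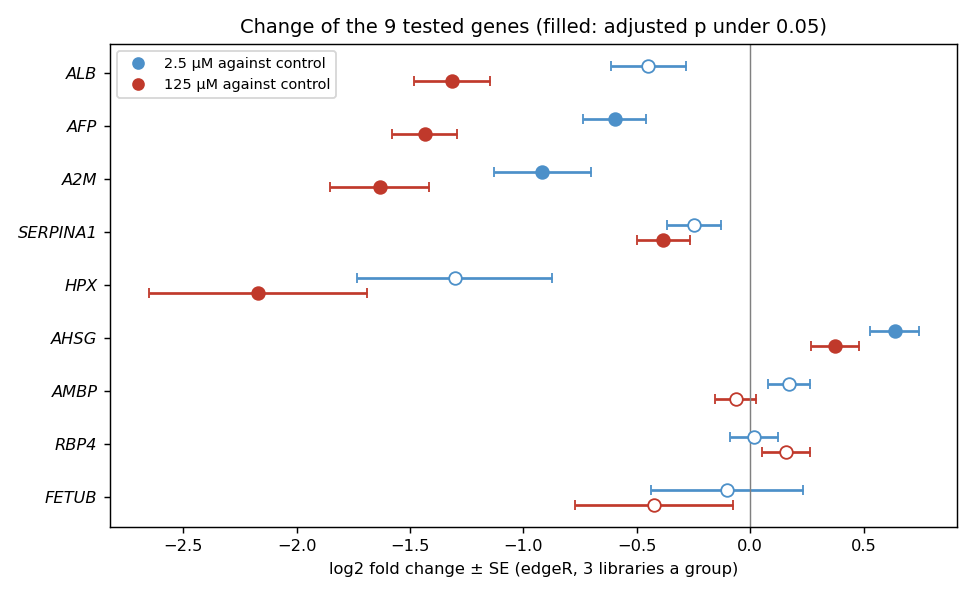
Log2 fold change ± SE of the 9 tested genes at 2.5 µM and at 125 µM against the controls (edgeR, 3 libraries a group), filled where the adjusted p is under 0.05. ALB, AFP, A2M and HPX lie farther below 0 at 125 µM than at 2.5 µM, AHSG lies above 0 at both, and AMBP, RBP4 and FETUB are open symbols at both.

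ALB, on chromosome 4 (74262831 to 74287129 in hg19), encodes albumin, the most abundant protein of plasma. It stood at 42653, 28459 and 36047 CPM in control libraries 1 to 3, at 29412, 27583 and 21465 CPM at 2.5 µM, and at 13669, 12044 and 17372 CPM at 125 µM. All 125 µM libraries were below all others, while the first 2.5 µM library lay above the lowest control. The log2 fold change at 125 µM was -1.31 ± 0.17 (SE, adjusted p = 4.88e-05, edgeR). At 2.5 µM it was -0.45 ± 0.17 and did not pass (adjusted p = 0.0910), although DESeq2 called it (adjusted p = 0.0354), as did the edgeR fit without control replicate 2 (adjusted p = 0.0228), the control with the lowest level. Between 125 and 2.5 µM it was -0.87 ± 0.17 (adjusted p = 0.00332).

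ALB had more reads than any other gene in all 3 controls and all 3 libraries at 2.5 µM. At 125 µM it ranked 4, 5 and 2 by reads in replicates 1 to 3. In controls ALB made up 3.49% ± 0.564 (SD, n = 3) of all gene reads, against 2.62% ± 0.443 with 2.5 µM and 1.46% ± 0.283 with 125 µM. The exact (Clopper-Pearson) 95% interval of the share was 4.04 to 4.06% in the first control and 1.76 to 1.79% in the third 125 µM library, so counting error was far below the spread between cultures.

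AFP encodes alpha-fetoprotein and lies next to ALB on chromosome 4 (74296855 to 74321891), 9725 bases beyond its end. Its level was 2478, 1822 and 2220 CPM in controls, 1607, 1576 and 1119 CPM at 2.5 µM and 827, 717 and 869 CPM at 125 µM. The groups formed 3 steps that did not overlap. AFP changed by -1.44 ± 0.14 (log2) at 125 µM (adjusted p = 7.46e-06), -0.60 ± 0.14 at 2.5 µM (adjusted p = 0.0172) and -0.84 ± 0.14 between the concentrations (adjusted p = 0.00133). The call at 2.5 µM was lost without control replicate 1 (adjusted p = 0.0951), control replicate 3 (0.0559) or 2.5 µM replicate 3 (0.0666).

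ALB and AFP are the adult and fetal members of the family, so their ratio within a library, which needs no scaling, shows whether the balance shifted. There were 17.2, 15.6 and 16.2 ALB reads per AFP read in controls, 18.3, 17.5 and 19.2 at 2.5 µM, and 16.5, 16.8 and 20.0 at 125 µM. The log2 ratio was 4.03 ± 0.0705 (SD, n = 3) in controls, 4.19 ± 0.0665 at 2.5 µM and 4.15 ± 0.153 at 125 µM. At 2.5 µM every library was above every control, with a difference of 0.16 (exact permutation p = 0.1, two-sided, the smallest that 3 against 3 allows). At 125 µM the groups overlapped (difference 0.12, exact permutation p = 0.4). Each gene was more than 2-fold lower at 125 µM, and their log2 ratio differed from that of controls by less than the SD of the 125 µM libraries.

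GC, also on chromosome 4 (72607410 to 72669758), encodes the vitamin D binding protein, the third albumin-family member in the set. It had 49, 0 and 10 reads in controls, 2, 0 and 0 at 2.5 µM and 2, 1 and 0 at 125 µM. Most of its reads came from the first control, and the second control had none, which allows up to 0.609 CPM, so the groups overlap. Pooled over libraries and relative to depth, 3 reads at 125 µM against 59 gave a ratio of 0.0426 (counting interval 0.00855 to 0.131), and 2 reads at 2.5 µM gave 0.0271 (0.00321 to 0.102). These intervals leave out the difference between the controls. Without the filter on low counts edgeR gave adjusted p = 1.49e-09 at 125 µM and 5.19e-10 at 2.5 µM. With the filter, GC was kept in the fits without control replicate 2 or without any 1 treated library, and was not tested without control replicate 1 or 3. Where a treated library was left out, its adjusted p was 0.00413 to 0.0369 at 125 µM and 0.0201 to 0.0494 at 2.5 µM. It was kept only through its reads in the controls, 49 of 59 of which came from control replicate 1, so these calls are no support for a change. AFM, the neighbouring afamin gene, had 17 reads over all 9 libraries.

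SERPINA1 (chromosome 14, 94843084 to 94857030) encodes alpha-1-antitrypsin, the main inhibitor of neutrophil elastase in plasma. It stood at 12986, 9858 and 13124 CPM in controls, 11039, 10170 and 9101 CPM at 2.5 µM and 9435, 8860 and 9297 CPM at 125 µM. All 125 µM libraries were below the controls, but the second control was only slightly above them. The log2 fold change of -0.38 ± 0.12 at 125 µM passed (adjusted p = 0.0183), and the call was lost without control replicate 1 (adjusted p = 0.0884), control replicate 3 (0.0894) or 125 µM replicate 2 (0.0695). At 2.5 µM it was -0.25 ± 0.12 (adjusted p = 0.192), and it passed without control replicate 2 (adjusted p = 0.0308).

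A2M (chromosome 12, 9220260 to 9268825) encodes alpha-2-macroglobulin, which traps proteases of many kinds. Its level was 24126, 13443 and 19437 CPM in controls, 11294, 11845 and 7058 CPM at 2.5 µM and 6468, 4811 and 7107 CPM at 125 µM. Controls were above all treated libraries, and the lowest 2.5 µM library lay within the 125 µM range. The log2 fold change was -1.63 ± 0.22 at 125 µM (adjusted p = 6.52e-05) and -0.92 ± 0.21 at 2.5 µM (adjusted p = 0.0171). The 2.5 µM call was lost without control replicate 1 (adjusted p = 0.0994), control replicate 3 (0.0536) or 2.5 µM replicate 3 (0.0663).

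Between the concentrations A2M changed by -0.72 ± 0.21 (adjusted p = 0.0359), a call that did not hold in DESeq2 (adjusted p = 0.0941). It was also lost without control replicate 3 (adjusted p = 0.0546), 2.5 µM replicate 1 (0.0967) or 2 (0.137), or 125 µM replicate 1 (0.0814), 2 (0.153) or 3 (0.0502). The antisense gene A2M-AS1 overlaps A2M and had 64 reads over all libraries, against 768967 for A2M.

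AHSG (chromosome 3, 186330712 to 186339107) encodes fetuin-A, a plasma protein that keeps calcium phosphate in solution. It was at 5047, 4951 and 5359 CPM in controls, 7754, 7281 and 8847 CPM at 2.5 µM and 6005, 7477 and 6424 CPM at 125 µM. Every treated library was above every control. The log2 fold change was 0.64 ± 0.11 at 2.5 µM (adjusted p = 0.00669), or 1.55-fold, and 0.37 ± 0.11 at 125 µM (adjusted p = 0.0121). Without 125 µM replicate 2 the second call was lost (adjusted p = 0.0717). Between the concentrations the change was -0.26 ± 0.11 and did not pass (adjusted p = 0.113), so its lower mean at 125 µM was not told apart from that at 2.5 µM.

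FETUB, the next gene on chromosome 3 (186353758 to 186370930), encodes fetuin-B, an inhibitor of astacin proteases with a role in fertilisation. It had 19, 10 and 7 reads in controls, 23, 16 and 4 at 2.5 µM and 11, 21 and 2 at 125 µM, that is 1.99, 1.97 and 1.79, then 2.20, 1.48 and 1.61, then 1.33, 1.74 and 0.733 CPM. All 125 µM libraries were below the controls, but the change of -0.42 ± 0.35 (log2) did not pass (adjusted p = 0.363). At 2.5 µM it was -0.10 ± 0.34 (adjusted p = 0.883). The gene overlaps RP11-134F2.2, which had 101 reads against 113 for FETUB, so its few reads are uncertain. Its neighbour AHSG had 433295 reads, HRG, which encodes histidine-rich glycoprotein, 21, and KNG1, the kininogen gene, 117, all over the 9 libraries: of these genes on chromosome 3 with cystatin-type domains, AHSG alone was abundant.

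RBP4 (chromosome 10, 95351444 to 95361501) encodes the plasma carrier of retinol. Its level was 315, 337 and 321 CPM in controls, 368, 319 and 294 CPM at 2.5 µM and 403, 368 and 311 CPM at 125 µM. The groups overlapped, and the log2 fold changes of 0.16 ± 0.10 at 125 µM (adjusted p = 0.244) and 0.016 ± 0.10 at 2.5 µM (adjusted p = 0.945) did not pass. FFAR4, which overlaps RBP4, had 94 reads.

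AMBP (chromosome 9, 116822407 to 116840752) encodes a precursor that is cut into alpha-1-microglobulin, a lipocalin that binds haem, and bikunin, a protease inhibitor. It stood at 1893, 1552 and 1879 CPM in controls, 2026, 1989.8 and 1981 CPM at 2.5 µM and 1655, 1729 and 1711 CPM at 125 µM. The 2.5 µM libraries were all above the others, with little spread. Its log2 fold change was 0.17 ± 0.09 at 2.5 µM (adjusted p = 0.239), -0.063 ± 0.09 at 125 µM (adjusted p = 0.614) and -0.24 ± 0.09 between the concentrations (adjusted p = 0.0984), none of which passed.

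HPX (chromosome 11, 6452279 to 6463847) encodes haemopexin, which carries free haem to the liver. It was a faint gene in these cells, with 98, 12 and 24 reads in controls, 25, 35 and 5 at 2.5 µM and 19, 9 and 5 at 125 µM. As CPM these were 10.3, 2.37 and 6.14 in controls, 2.39, 3.25 and 2.02 at 2.5 µM and 2.30, 0.745 and 1.83 at 125 µM. The second control was close to the highest 125 µM library. The log2 fold change at 125 µM was -2.17 ± 0.48 (adjusted p = 0.0026), and -1.46 without control replicate 1 (adjusted p = 0.0413), the library with the largest count. At 2.5 µM it was -1.30 ± 0.43 (adjusted p = 0.0630), with -1.66 without control replicate 2 (adjusted p = 0.00569) and -0.60 without control replicate 1 (adjusted p = 0.548).

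Compared per exon length, as the authors' RPKM, the order of the members differed between the groups. In controls ALB was highest at 10121 ± 1633 RPKM (SD, n = 3), followed by A2M at 2813 ± 696, SERPINA1 at 2349 ± 281 and AHSG at 2048 ± 88.4, and these last 3 overlapped. AMBP at 810.3 ± 60.3 RPKM was above AFP at 628 ± 73.0 and RBP4 at 216 ± 16.7 RPKM. HPX, GC and FETUB, with means of 1.31, 1.01 and 0.566 RPKM, overlapped one another.

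At 125 µM AHSG was second in RPKM with 2782 ± 319, above all SERPINA1 values (1883 ± 65.1), while ALB, still first, was at 4272 ± 829. A2M, at 961 ± 188 RPKM, overlapped AMBP at 824 ± 20.6, and AFP, at 244 ± 23.6, overlapped RBP4 at 250.3 ± 31.7. At 2.5 µM the order was ALB at 7603 ± 1269, AHSG at 3262 ± 374, SERPINA1 at 2026 ± 226, A2M at 1533 ± 390, AMBP at 943 ± 31.5, AFP at 424 ± 80.9 and RBP4 at 222 ± 30.3 RPKM. In reads, the number of ALB reads per AHSG read was 8.45, 5.75 and 6.73 in controls, against 3.79, 3.79 and 2.43 with 2.5 µM TBOEP and 2.28, 1.61 and 2.70 with 125 µM.

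Together the 10 genes accounted for 8.51, 6.21 and 7.61% of the reads assigned to genes in controls, 6.53, 5.89 and 4.99% with 2.5 µM and 3.92, 3.66 and 4.40% at 125 µM. The mean share was 7.44% ± 1.16 (SD, n = 3) in controls, 5.80% ± 0.777 at 2.5 µM and 3.99% ± 0.379 at 125 µM. The 125 µM libraries were below all others, with a difference from controls of -3.45 percentage points (exact permutation p = 0.1, two-sided, the smallest possible) and from 2.5 µM of -1.81 points (exact permutation p = 0.1). At 2.5 µM the first library lay above the lowest control (difference -1.64 points, exact permutation p = 0.2). ALB made up 46.0 to 47.6% of the members' reads in controls, 43.0 to 46.3% at 2.5 µM and 33.4 to 40.3% at 125 µM.

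**Figure D3:**
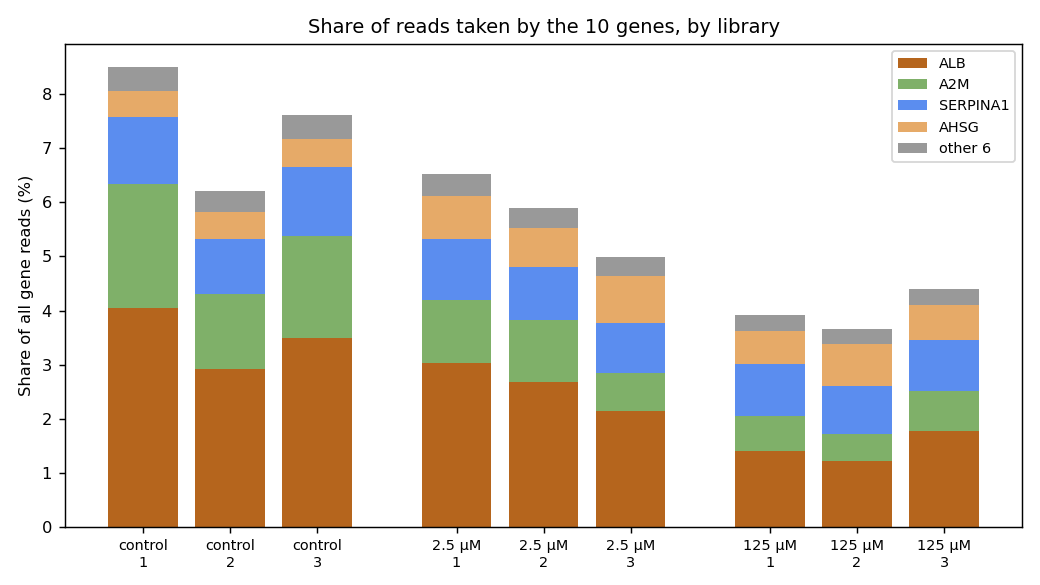
Share of all gene reads (%, vertical axis from 0) taken by the 10 genes in each library, stacked as ALB, A2M, SERPINA1, AHSG and the other 6 genes. The stacks reach 6.21 to 8.51% in controls and 3.66 to 4.40% at 125 µM; the ALB and A2M segments shrink and the AHSG segment does not.

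Reads in introns come mostly from RNA that is not yet spliced, and the files count them apart from exon reads. Of ALB RNA, 190, 193 and 163 intron reads per 1000000 gene reads were found in controls, 135, 104 and 65.3 at 2.5 µM and 40.1, 29.6 and 35.9 at 125 µM. The mean was 5.17-fold lower at 125 µM, where exon reads per 1000000 were 2.38-fold lower. Intron reads of A2M went from 299, 250.3 and 231 to 37.4, 19.1 and 40.1 reads per 1000000 at 125 µM, 8.09-fold lower in the mean beside 2.94-fold for exon reads. Those of AFP were 3.36-fold lower (exons 2.58-fold). For ALB, A2M and AFP the intron values at 125 µM did not overlap those of controls. The share of all genes whose intron reads separate in this way was not counted, so the separation is not shown to be particular to these members. This limit also holds for the intron reads of the other members below.

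AMBP had fewer intron reads at 125 µM without fewer exon reads. Its intron reads per 1000000 gene reads were 56.9, 55.8 and 55.4 in controls, 55.7, 37.1 and 36.3 at 2.5 µM and 29.1, 25.2 and 21.7 at 125 µM, 2.21-fold lower in the mean, while its exon reads at 125 µM were 1.01 times those of controls. AHSG had 115, 138 and 121 intron reads per 1000000 in controls and 132, 126 and 119 at 125 µM, which overlap, with exon reads 1.35 times those of controls. SERPINA1 went from a mean of 22.1 to 14.7 intron reads per 1000000. RBP4 had 0 intron reads among its 22613 reads. FFAR4 spans the whole of RBP4, and whether intron reads could be assigned to RBP4 there was not tested.

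Over 12 such comparisons of intron reads (the 6 members with the most reads, chosen after their values were seen, at 2 concentrations), the exact permutation p was 0.1 for ALB, AFP and A2M at both concentrations and for SERPINA1 and AMBP at 125 µM (adjusted p = 0.15, permutation test), and AHSG at 125 µM had a permutation p of 1. Among the reads of all 10 members, introns made up 0.947% ± 0.162 in controls, 0.783% ± 0.170 at 2.5 µM and 0.622% ± 0.0625 at 125 µM (exact permutation p = 0.1 for 125 µM against control, 0.3 for 2.5 µM). The intron share of the reads of all nuclear genes moved the same way, from 6.14 to 7.24% in controls to 4.91 to 5.50% at 125 µM, with 7.74, 5.33 and 4.93% at the lower concentration; its part in these values was not tested.

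**Figure D4:**
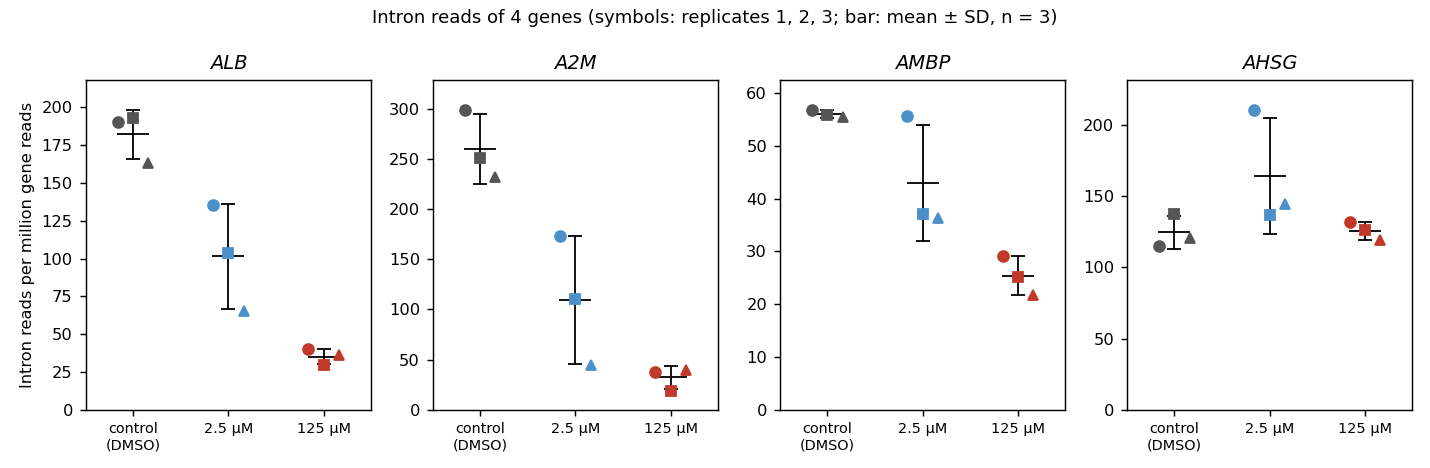
Intron reads per 1000000 gene reads (vertical axes from 0) of ALB, A2M, AMBP and AHSG in each library, with symbols for replicates and bars for the mean ± SD (n = 3). ALB, A2M and AMBP are lower at 125 µM than in every control, at means of 35.2 against 182, 32.2 against 260.2 and 25.4 against 56.0, and AHSG is at 126 against 125.

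The level of ALB also bears on how it is seen in the authors' own normalised values. Quantile normalisation gives genes of the same rank the same value in every library. The rank of ALB in these values was its rank by exon reads in 9 of 9 libraries, and its rank by total gene reads, used above, in 6 of 9. ALB held the first rank, with the value 218460, in 7 of the 9 libraries: all controls, all libraries at 2.5 µM and the third at 125 µM. The other 125 µM libraries had 122860 and 106820. On these values ALB therefore had a log2 change of 0 at 2.5 µM by construction, and of -0.62 at 125 µM (limma, adjusted p = 0.414), where the counts gave -1.31.

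**Figure D5:**
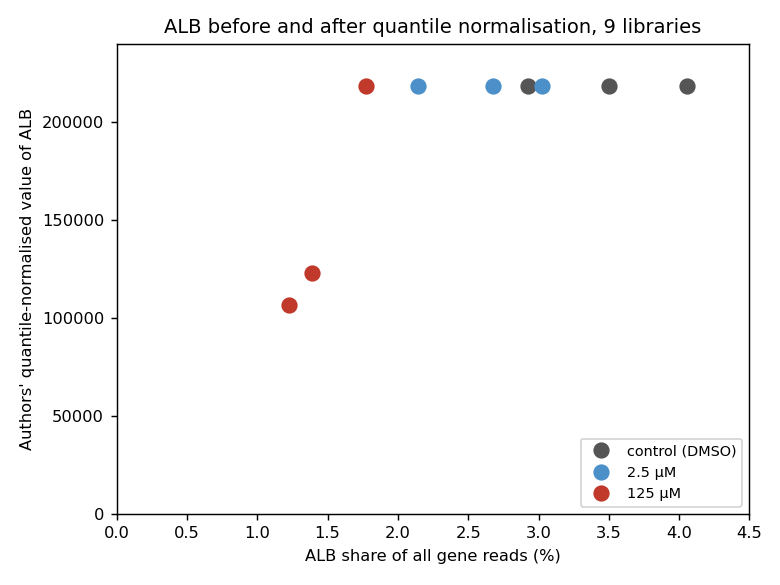
The authors' quantile-normalised value of ALB (vertical axis, linear from 0) against its share of all gene reads (%, horizontal axis) in the 9 libraries, coloured by group. Points of 7 libraries lie on the maximum of 218460 although their shares run from 1.78 to 4.05%, and the lower 2 are at 125 µM.

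The counts in the gene lists that follow stand beside 20.3% of all tested genes higher and 19.9% lower at 125 µM, 6.03% and 5.04% at 2.5 µM, and 7.48% and 7.44% between the concentrations. Of 7 tested SERPINA genes near SERPINA1, 4 were lower and 1 was higher at 125 µM. SERPINA3, an acute phase inhibitor, was at 143 ± 42.9 CPM in controls and 59.3 ± 14.2 CPM at 125 µM (n = 3 each), and its position overlaps another annotated feature, which had 360 reads. SERPINA6, the cortisol carrier, was at 154 ± 7.46 against 107 ± 4.91 CPM, and SERPINA5, which overlaps SERPINA4, at 475 ± 73.7 against 318 ± 13.8 CPM. SERPINA12 was higher, at 112 ± 17.8 against 68.7 ± 27.7 CPM, but its call was lost without control replicate 1 (adjusted p = 0.0634) or 125 µM replicate 2 (0.0799), and in DESeq2 (0.0795), on exon reads (0.114), on both RPKM scales and on the quantile values. At 2.5 µM 2 of the 7 were higher and 1 lower, SERPINA3, whose call was lost without control replicate 1 (adjusted p = 0.109), control replicate 3 (0.0611) or 2.5 µM replicate 3 (0.0504); DESeq2 called 0 of the 7 at 2.5 µM, and 0 were higher there without control replicate 1 or 3 or 2.5 µM replicate 1 or 3.

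Of 6 tested relatives of A2M, 3 were lower and 1 higher at 125 µM. The third lower call, C4B, whose reads are uncertain because C4A is a near-identical copy, was lost in 15 of the 22 alternatives, among them DESeq2 (adjusted p = 0.0857) and the fits without any 1 control library (0.0749 to 0.130). PZP, the pregnancy zone protein, was at 3.20 ± 1.59 CPM in controls and 0.884 ± 0.185 CPM at 125 µM, and C3, the central complement component, at 7187 ± 905 against 5146 ± 191 CPM, where CD109, a membrane-bound relative, was at 36.9 ± 5.68 against 69.9 ± 8.50 CPM. At 2.5 µM 0 of the 6 passed in edgeR or DESeq2, and 2 were lower at an unadjusted p under 0.05 in edgeR. C3 overlaps GPR108. Of 5 tested secreted lipocalins besides RBP4 and AMBP, 3 were higher and 0 lower at 125 µM, and 2 and 0 at 2.5 µM, with 0 lower at an unadjusted p under 0.05 in edgeR or by DESeq2 either. The number higher at 2.5 µM was 1 without control replicate 1 or 3, any 1 of the 2.5 µM libraries or 125 µM replicate 3, and 3 without control replicate 2; at 125 µM it was 2 without control replicate 1 or 125 µM replicate 1. APOM, the apolipoprotein that carries sphingosine 1-phosphate, was at 87.4 ± 9.41 CPM in controls, 182 ± 29.1 at 2.5 µM and 176 ± 28.0 at 125 µM, and C8G, of the complement complex, at 1.90 ± 0.932 against 5.58 ± 0.454 CPM at 125 µM. APOM overlaps BAG6, which had 22295 reads against 10010 for APOM, so its values are uncertain.

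Partners that the members' products bind were also followed. Of 8 tested, 2 were higher and 3 lower at 125 µM, and 2 higher and 0 lower at 2.5 µM (also 0 lower unadjusted or by DESeq2). At 2.5 µM 1 was higher without control replicate 1, and 3 were higher and 1 lower without 2.5 µM replicate 1. At 125 µM 1 was higher without control replicate 1, 125 µM replicate 1 or 125 µM replicate 2, and 2 were lower without control replicate 1 or 125 µM replicate 2. TTR, transthyretin, which holds RBP4 in the circulation, was at 136 ± 3.76 CPM in controls and 189 ± 8.19 CPM at 2.5 µM (adjusted p = 0.00824), where RBP4 itself did not pass. ITIH2, a heavy chain joined to bikunin from AMBP, was at 3517 ± 212 in controls and 2448 ± 128 CPM at 125 µM (adjusted p = 0.000527), where AMBP did not pass. HMOX1, the haem oxygenase that breaks down the haem HPX delivers, was at 27.6 ± 6.18 against 59.8 ± 5.87 CPM at 125 µM (adjusted p = 9.64e-05).

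Among 52 tested genes for other plasma proteins of the liver, 24 were lower and 6 higher at 125 µM, with a median log2 fold change of -0.41, and 22 did not pass. CFI, the complement inhibitor factor I, was at 554 ± 31.7 CPM in controls and 232 ± 18.3 CPM at 125 µM. FGB, a fibrinogen chain, and CPB2, which slows clot lysis and overlaps CPB2-AS1, were 3.29-fold and 3.30-fold lower, and SERPINA7, the thyroxine carrier, was 2.04-fold lower. At 2.5 µM 6 were higher and 5 lower with a median of 0.038, and the first by adjusted p was APOA2, an apolipoprotein of high-density lipoprotein, at 1362.5 ± 161 CPM in controls and 2088 ± 219.6 CPM at 2.5 µM (SD, n = 3 each). The number lower at 2.5 µM among these other plasma proteins of the liver was 0 without 2.5 µM replicate 3, 0 without control replicate 1, 1 without control replicate 3, 3 without 125 µM replicate 1 or 3, and 9 without control replicate 2 or 2.5 µM replicate 1. Between 125 and 2.5 µM, 23 of the 52 were lower and 1 higher, with 13 lower without 125 µM replicate 1, 14 without 125 µM replicate 3, 13 on both RPKM scales and 12 on the quantile values.

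Of 35 tested transcription factors of liver genes, 20 were lower and 1 higher at 125 µM, and 6 lower and 0 higher at 2.5 µM (2 higher unadjusted, 0 by DESeq2). Without control replicate 1 or 2.5 µM replicate 3 there were 2 lower at 2.5 µM, and 3 without control replicate 3. NR1H4, the bile acid receptor FXR, was at 163 ± 48.0 CPM in controls and 54.7 ± 6.35 CPM at 125 µM, and GATA4 at 86.8 ± 26.5 against 33.6 ± 6.63 CPM. CREB3L3, a membrane-bound factor of the fasted liver, was at 50.1 ± 7.68 in controls, 23.1 ± 4.28 at 2.5 µM and 26.2 ± 4.56 CPM at 125 µM. HNF4A, a known regulator of liver genes that is named here after its values were seen, did not pass at 125 µM, at 275 ± 5.73 against 296 ± 12.7 CPM (adjusted p = 0.378). Others of the HNF4, FOXA and C/EBP families are also named after their values were seen. HNF4G (edgeR adjusted p = 0.0341), FOXA1 (0.00569) and CEBPD (0.00233) were lower at 125 µM, and CEBPB was higher (0.000674). FOXA2 (0.506) and FOXA3 (0.0643) did not pass, and CEBPA, with 2 reads over all libraries, was not tested. FOXA1 overlaps TTC6, which had 1581 reads against 3594.

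Of 44 tested genes for entry into and export from the endoplasmic reticulum, 10 were higher and 5 lower at 125 µM, with a median log2 fold change of -0.071, and 2 higher and 3 lower at 2.5 µM. These were 22.7% higher and 11.4% lower at 125 µM and 4.55% and 6.82% at 2.5 µM, to be read against the shares of all genes. DESeq2 called 7 higher and 4 lower at 125 µM, and with 1 library left out there were 6 to 10 higher and 2 to 7 lower, the fewest higher without control replicate 1 or 125 µM replicate 2 and the fewest lower without 125 µM replicate 1; at 2.5 µM the ranges were 0 to 4 higher, 0 without 2.5 µM replicate 3, and 1 to 3 lower. SEC23B, of the vesicle coat for export, was at 104 ± 3.91 CPM in controls and 143 ± 5.74 CPM at 125 µM, while MIA3, which helps load large cargo, was at 126 ± 8.46 CPM in controls, 89.25 ± 3.99 at 2.5 µM and 96.6 ± 3.03 CPM at 125 µM.

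Markers of other cell types were read beside these results. The summed level of 8 endothelial markers was 3.55 to 6.80 CPM in controls, 3.80 to 5.25 at 2.5 µM and 13.6 to 17.4 CPM at 125 µM, with KDR and CLEC4G at 0 reads. Of the 3 tested, 2 were higher at 125 µM, ESAM (1.82 ± 0.421 against 11.2 ± 1.78 CPM) and TIE1 (0.391 ± 0.134 against 2.29 ± 0.648 CPM). TIE1, at 0.789 ± 0.720 CPM at 2.5 µM, was kept by the filter on low counts through its reads at 125 µM. Its call is therefore no support for a change. ESAM, which made up most of the sum at 125 µM, overlaps VSIG2, which had 86 reads against 348. VWF was lower, at 1.88 ± 1.33 against 0.746 ± 0.661 CPM (adjusted p = 0.0243, edgeR), but DESeq2 called 0 lower. The summed level of 9 blood cell markers, nearly all LYZ, was 2425 to 3070.3 in controls, 2521 to 2868 at 2.5 µM and 1857 to 2057 CPM at 125 µM, with PTPRC, MARCO and CD3E at 0. At 125 µM LYZ was lower (adjusted p = 0.00128, edgeR). CD68 was higher, at 1.70 ± 1.14 against 5.77 ± 0.361 CPM (adjusted p = 0.00170, edgeR), but it overlaps AC113189.5, which had 189 reads against 234. The summed level of 8 fibroblast markers was 39.9 to 46.1, 34.7 to 45.0 and 24.8 to 33.2 CPM, with COL1A2, DCN and LUM at 0, and that of 7 bile duct markers 1719 to 2545, 1522 to 2009.5 and 1097 to 1547 CPM, with CFTR at 0. SPP1 made up most of the bile duct sum, at 1448 to 2240.0 CPM in controls and 681 to 1153 CPM at 125 µM, while KRT19 was higher in all 3 comparisons, at 74.6 ± 15.8 CPM in controls, 131 ± 35.0 at 2.5 µM and 217 ± 19.6 CPM at 125 µM (SD, n = 3; adjusted p = 1.77e-05 for 125 µM against control, edgeR). Of the 4 tested bile duct markers, 2 were lower at 125 µM in edgeR. These were SPP1 (adjusted p = 0.00278) and SOX9, at 34.1 ± 5.82 against 19.0 ± 1.75 CPM (adjusted p = 0.000362). SOX9 was also lower at 2.5 µM (adjusted p = 0.0226, edgeR). With 1 library left out, 0 to 1 were higher and 0 to 1 lower at 2.5 µM, and 0 to 1 higher between the concentrations. The part of these markers in the members' changes was not tested.

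Across the 9 libraries, the genes whose level ran most closely with ALB, among 8708 with at least 10 CPM, were COL4A5, a collagen of basement membranes (Pearson's r = 0.993 of log2 CPM), SMLR1 (0.991), DPP4, a membrane peptidase (0.990), ASPSCR1 (0.986) and FAM20C, a kinase of secreted proteins (0.986). For AFP they were ODAM (0.994), SLC38A11 (0.993), ADCK3 (0.993), RAB17, a small GTPase (0.993, from 694 CPM in controls to 126 CPM at 125 µM), and SMLR1 (0.991). Among the members, r with ALB was 0.984 for AFP, 0.961 for A2M, 0.855 for SERPINA1, 0.853 for HPX, 0.507 for FETUB, 0.438 for AMBP, -0.425 for AHSG and -0.483 for RBP4. HPX and FETUB were under the cut of 10 CPM, and GC, which was not tested, has no r. Before the log, 0.5 CPM was added to each level, which weighs most on faint genes. These values are a description of 9 libraries from 3 groups, which share the differences between the groups.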

How the data were processed

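Per the labels' protocols, poly(A) RNA libraries (TruSeq Stranded mRNA) were paired-end sequenced, and per the series' design text the authors aligned them to hg19 with CLC Genomics Workbench. Neither the version of CLC nor its strand setting was stated in the labels. Per the file headers, the deposited tables hold, for each gene, counts of total, unique, exon and intron reads, the authors' RPKM, and a quantile-normalised signal made by the authors. Exon and intron reads summed to the total in 99.9% of values.

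Total gene reads were tested with edgeR 4.0.16 in R 4.3.3 (quasi-likelihood, TMM, filterByExpr, all 9 libraries and 3 groups, 12901 genes, Benjamini-Hochberg adjustment, threshold 0.05). Single measures were compared by exact two-sided permutation, whose smallest p for 3 against 3 is 0.1. Shares have exact 95% intervals; intervals and the floor of 3 reads cover counting error only. Alternatives used DESeq2 1.42.0, limma 3.58.1, other scalings, filters and read classes, the replicate number as a block, and each library left out. The tests were checked on simulated data, in which 200 of the 12901 genes were changed. There edgeR recovered 41.8 to 50.7% of 1.5-fold changes and 80.6 to 86.6% of 2-fold changes over the 3 comparisons. A change of 1.5-fold or less that did not pass is therefore not shown to be absent. The rates may differ in the real data, where 40.2% of genes passed at 125 µM.

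The members and gene lists were chosen with earlier results of these data known. All 10 members are named, with up to 4 genes per list with the smallest adjusted p (fewer are given here) and the 5 genes most like ALB and AFP. Transcription factors of the HNF4, FOXA and C/EBP families are named besides. Promoter windows are from RefSeq (GRCh38.p14 table), each placed on hg19 by exact match.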

Additional observations from a re-analysis of the deposited data

How the results depend on the processing

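Over 22 alternatives, 533 of 593 values of single members kept their direction and side of the threshold, 43 fell short of it, 6 newly passed and 11 changed sign. ALB, AFP and A2M were called lower at 125 µM in every fit that left out 1 library. At 125 µM 6 members passed, 3 on log2(RPKM + 0.5), 3 on log2(RPKM + 0.1) and 2 on the quantile-normalised values (5 to 7 with 1 library left out). At 2.5 µM 3 passed, 6 without the filter on low counts, and 0 with limma on log2(RPKM + 0.5), log2(RPKM + 0.1) and the quantile values (4, 4 and 2 at an unadjusted p under 0.05), with 1 to 7 when 1 library was left out. In both comparisons with the controls, the counts without that filter, without control replicate 2 or without any 1 treated library include GC. The calls of GC are no support for a change, as given above. Between the concentrations 3 passed, 1 on both RPKM scales and 0 on the quantile values (1 unadjusted, limma), and 2 to 3 with 1 library left out. Over all genes, 1428 passed at 2.5 µM, but 216 on log2(RPKM + 0.5), 0 on log2(RPKM + 0.1) (limma, 3332 unadjusted), 227 on the quantile values, 731 with only the groups compared in the fit, and 213 to 2051 with 1 library left out. Between the concentrations 1925 passed, and 968, 864 and 916 on those 3 scales, with 799 to 2231 when 1 library was left out. The share of higher calls was 50.5% at 125 µM and 66.5% on both RPKM scales, 54.5% at 2.5 µM against 79.2% on log2(RPKM + 0.5) and 74.9% on the quantile values, and 50.1% between the concentrations against 68.8% and 66.8%. On the scale log2(RPKM + 0.1) the median log2 fold change of all genes at 125 µM was 0.107, beside 0.0036 in the main fit. The cause of these differences was not tested.

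Changes of sign were small: AMBP at 125 µM was 0.027 on both RPKM scales; RBP4 at 2.5 µM was -0.0074 on exon reads, -0.0154 on the quantile values, and from -0.0797 to 0.0893 with 1 library left out, negative without 2.5 µM replicate 1 or control replicate 1; FETUB at 2.5 µM was 0.0807, 0.132 and 0.0983 on the RPKM and quantile scales and from -0.353 to 0.0786 with 1 library left out, positive without 2.5 µM replicate 2; SERPINA1 at 2.5 µM was 0.139 on the quantile values. The log2 ALB to AFP ratio between the concentrations ran from -0.136 to 0.0014 with 1 library left out. Same-numbered libraries deviated together (correlation over 0.1) in 4 of 9 pairs, from -0.241 to 0.184, where pairs with different numbers ran from -0.268 to 0.268. Replicate 3 had the fewest gene reads in each group (4023991, 2480964 and 2670690 in control, 2.5 µM and 125 µM). Whether same-numbered libraries shared a batch cannot be told from these correlations. With the replicate block 6, 3 and 3 members passed and 5067, 1274 and 1772 genes. Of 39 calls of named list genes, 23 held in every alternative. The calls of HNF4G, FOXA1, CEBPB and CEBPD at 125 µM against control were not among these 39. Depth limits HPX, FETUB and GC, whose libraries held 0 to 98 reads.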
